A study of Mus musculus with 14 samples.

Results

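The 14 brain libraries of this series fell into 2 sets that cut across genotype. Genes of dividing cells and of young neurons were higher in set B, and genes of myelin and of mature receptor and channel subunits were higher in set A. Set A held 8 libraries, Rik-null 1, 6, 7 and 8 and WT 1, 4, 5 and 6, and set B held 6, Rik-null 2, 3, 4 and 5 and WT 2 and 3. The sets were chosen on the gene expression of these same libraries, as the groups that part on a leading principal component. Every difference between the sets is therefore given as a description, with no test.

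RNA was sequenced from mouse pups killed at postnatal day 14 (P14), and each library stands for the brain of a single animal. The Rik-null pups, labelled RIK KO, were homozygous for a short deletion in the first intron of the predicted gene 2310061I04Rik (Rik), which arose spontaneously in an embryonic stem cell clone made for floxed Traf7 mice and was later bred away from that allele with C57BL/6 mice. The WT pups were described as littermates, both genotypes carry the strain label C57BL6/J, and neither received any treatment. The labels give the tissue as whole brain, the series' design text describes brains divided along the midline, and neither gives a litter, body weight, dissection day or sequencing run, so none of these could be set against the sets. All pups were of 1 labelled age.

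In the mouse brain the weeks after birth see the last waves of cell division end, in the cerebellar granule cell layer and around the ventricles, while young neurons stop extending axons and begin to build synapses. Oligodendrocyte precursors leave the cell cycle, pass through a newly formed stage and then wrap axons in myelin, and receptor and channel subunits typical of young neurons give way to adult ones. Radial glia disappear and astrocytes take on their mature enzymes and transporters. In a bulk sample, fewer cells of a type and less RNA per cell cannot be told apart.

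The libraries held 15183130 to 30993890 counts, and the sets overlapped in depth, with means of 23735895 ± 6688528 counts in set A (SD, n = 8) and 21742344 ± 3305666 in set B (SD, n = 6). The difference of 1993551 counts did not pass an exact permutation test (2-sided p = 0.508, adjusted p = 0.941 over 3 tests). Neither genotype nor labelled sex passed Fisher's exact test, 2-sided, for its share of the sets (genotype p = 0.627, adjusted 0.941; sex p = 1, adjusted 1). With 8 and 6 libraries these tests could miss a difference, and the sets were taken as groups that cut across genotype. Rik itself was at 7.47 to 10.5 CPM (counts scaled to a common library total) in the Rik-null libraries and at 68.8 to 79.3 in WT, so every library matched its genotype label. The sex genes went against the labelled sex in 2 libraries: WT 1, labelled male, held Xist at 435 CPM with Ddx3y, Uty, Kdm5d and Eif2s3y at 0, and WT 6, labelled female, held Ddx3y at 54.7 CPM. Growth hormone (Gh), a pituitary gene, was at 44.6 CPM in Rik-null 5 and 185 in Rik-null 8, which lie in different sets, and below 1 CPM in the others. Mitochondrially encoded transcripts took 2.3% to 4.01% of counts in set A and 2.08% to 3.39% in set B.

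On the 500 most variable autosomal genes the first principal component held 32.2% of the variance. The 8 set A libraries scored from 2.39 to 12.2 on it, and the 6 set B libraries scored from -12.5 to -5.33. The library of set A nearest to the gap was Rik-null 1, at 2.39, followed by WT 1 at 3.59. The nearest of set B was WT 2, at -5.33. At the far end of set A stood Rik-null 6 and WT 4, both at 12.2, and at the far end of set B stood Rik-null 5, at -12.5. Average-linkage clustering on all tested autosomal genes returned the same 2 sets when divided into 2 clusters, which is the same information seen again and not a further line of evidence.

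**Figure D1:**
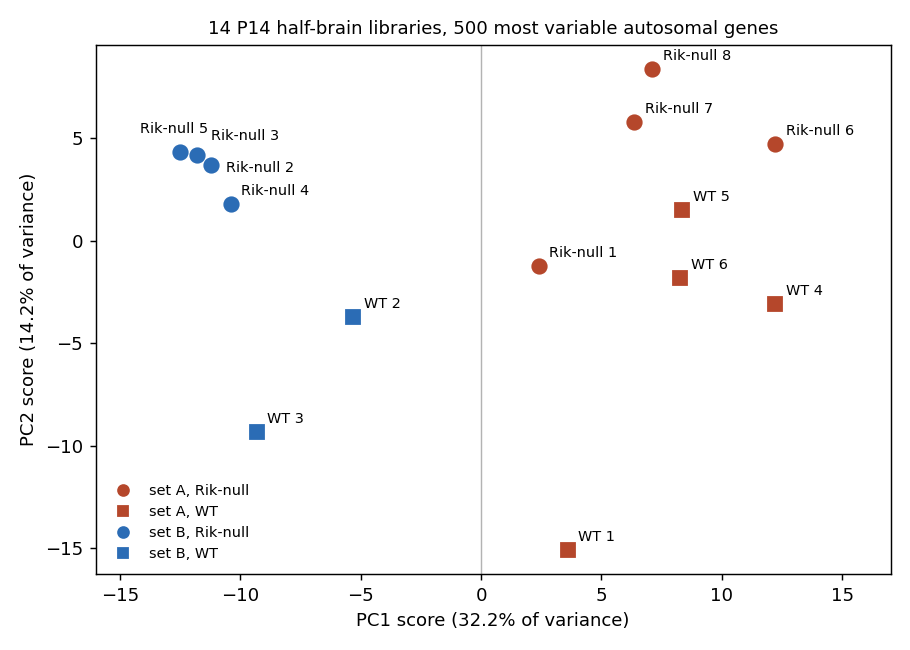
Scores of the 14 libraries on the first (x axis) and second (y axis) principal components of log2 CPM over the 500 most variable autosomal genes; colour gives the set and shape the genotype. The first component, with 32.2% of the variance, parts set A (2.39 to 12.2) from set B (-12.5 to -5.33), and both genotypes lie on both sides.

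Of 17557 autosomal genes tested, 664 (3.78%) were apart and higher in set A and 683 (3.89%) were apart and higher in set B, 1347 (7.67%) in either direction. A gene was called apart where every library of one set lay above every library of the other and the fitted log2 difference of A minus B, with genotype as a term, was at least 0.2 in size. The median difference over all genes was 0.00, and from the 5th to the 95th percentile the differences ran from -0.42 to 0.48. These shares are the background for every count of list members below. A log2 difference of 1 or more was reached by 34 of the genes higher in set A and 67 of those higher in set B.

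Gene lists for stages of maturation held far more genes apart than lists for brain regions or settled cell types. Over the stage lists together, 46 of 273 tested members were apart and higher in set A and 87 higher in set B, 16.8% and 31.9%. Over the region lists without the members they share with stage lists, 25 of 344 were higher in A and 11 higher in B, 7.27% and 3.2%. For the lists of other cell types the same counts were 14 and 2 of 199, 7.04% and 1.01%. Genes in no list gave 3.46% and 3.5% of 16464.

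**Figure D2:**
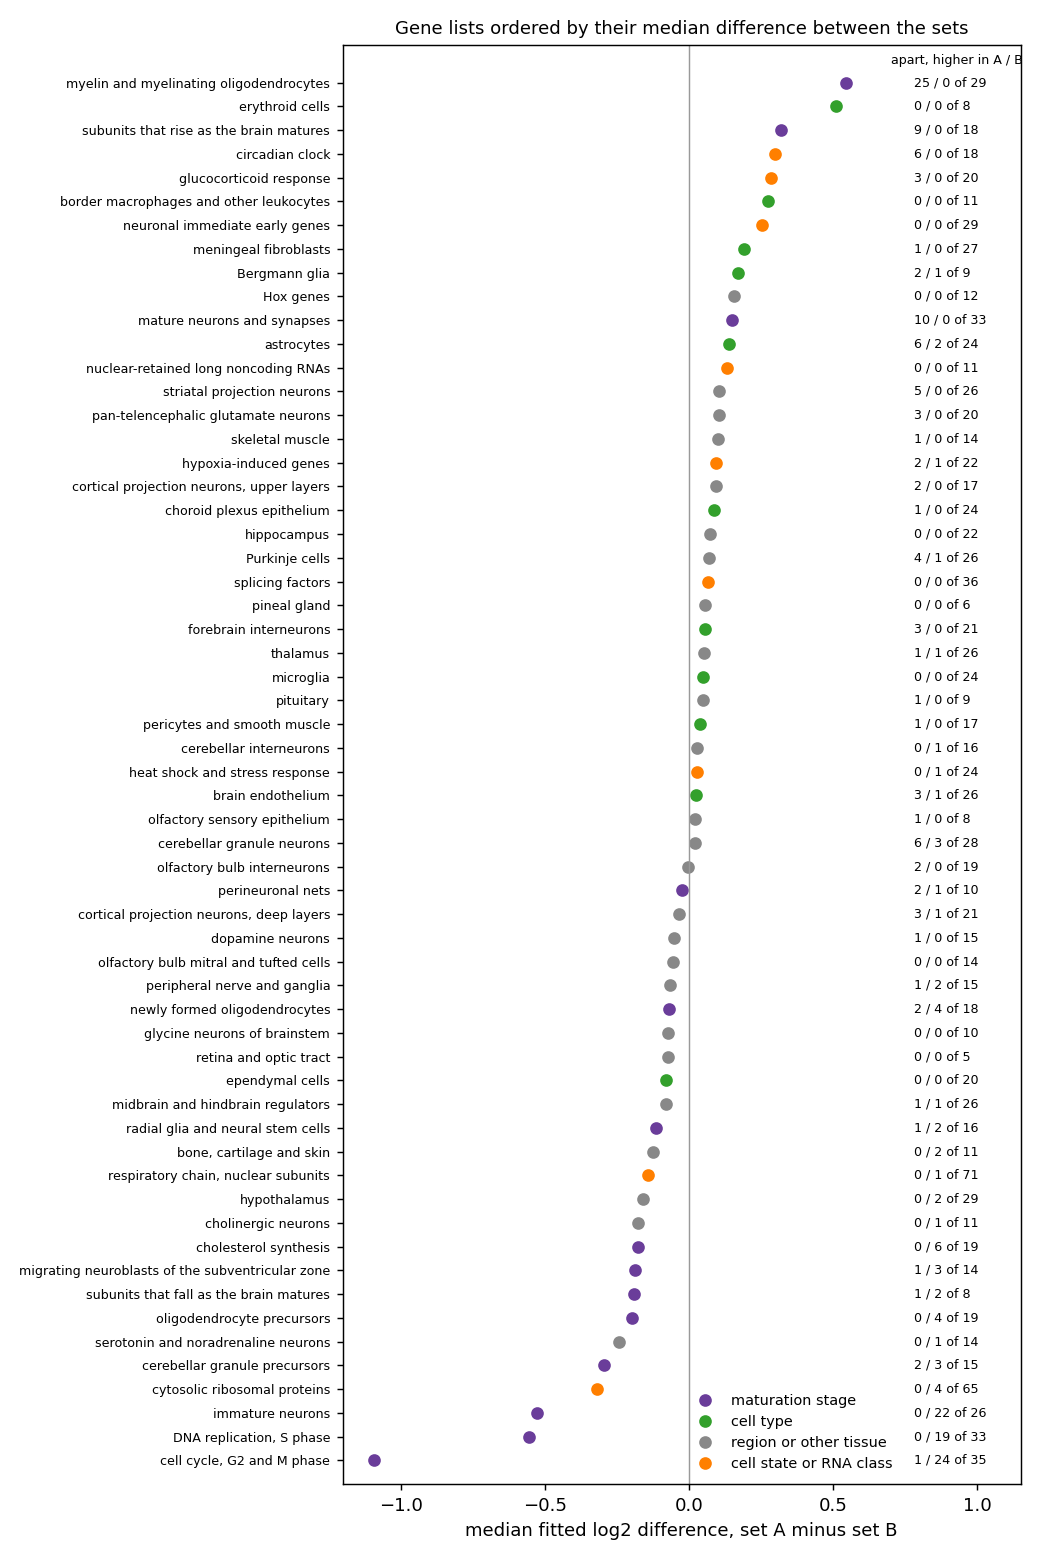
Median fitted log2 difference (set A minus set B, x axis) over the tested members of each of 59 gene lists, ordered by that median and coloured by kind of list, with the members apart in each direction printed at the right. Cell division and immature neuron lists lie at the set B end (medians of -1.09, -0.55 and -0.53), the myelin list at the set A end (0.55), and most region lists near 0.

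The genes that part the sets most sharply on the set B side were those of cell division. Of 35 tested genes that act in the G2 and M phases, 24 were apart and higher in set B, 1 was apart and higher in set A, and the median log2 difference was -1.09. Ccnb1, the cyclin that drives entry into mitosis, was at 0.712 to 2.21 CPM in set A (median 1.88) and at 3.74 to 6.14 in set B (median 4.38). No library of set A reached the lowest of set B, and the fitted difference was -1.49 ± 0.19 (SE), or 2.81-fold higher in B. Its kinase partner Cdk1 was at 0.925 to 2.73 CPM in set A (median 1.67) and at 3.67 to 5 in set B (median 4.75), 2.6-fold higher in B. Top2a, the topoisomerase that untangles replicated chromosomes, was at 3.63 to 6.6 CPM in A (median 5.17) and at 11.7 to 16.8 in B (median 15.3), a difference of -1.41 ± 0.10. In each of these 3 genes the lowest library of set B stood well clear of the highest of set A.

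Other mitotic genes followed the same order at low levels. Pimreg, which acts at the metaphase to anaphase step, is outside that list and had a difference of -1.93 ± 0.17, at 0.674 to 1.9 CPM in A and 3.46 to 4.14 in B. Ube2c, the ubiquitin-conjugating enzyme of the anaphase-promoting complex, was at 1.07 to 2.27 CPM in A (median 1.49) and 3.36 to 5.38 in B (median 4.27). The phosphatase gene Cdc25c (-1.58), the chromosomal passenger kinase Aurkb (-1.47), the spindle checkpoint kinase Bub1 (-1.46) and the kinesins Kif2c (-1.45) and Kif18b (-1.38) were also apart and higher in set B. Anln was the single member apart in the other direction, at 21.1 to 39.9 CPM in A and 13.1 to 18.4 in B (0.82 ± 0.12). It encodes the actin-binding protein anillin of the cleavage furrow and is also a gene of myelinating oligodendrocytes. Without Anln, the list summed to 60.9 to 84.9 CPM in set A and 145 to 163 CPM in set B.

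Most promoters of the G2 and M genes carry a shared sequence, and 4 windows are shown to make such letters visible. The sequence is a known feature of these genes whatever their values. Its presence therefore describes the list and is no support for the sets. Genes of the G2 and M phases are known to be repressed outside the cell cycle through the cell cycle genes homology region, whose core letters are TTTGAA, and S phase genes through E2F sites, taken here as TTTGGCGC or TTTCGCGC. The stretches below are the 120 bases before the annotated start, from RefSeq on build GRCm38.p6, at chr10:69352913-69353032 (Cdk1, minus strand), chr11:99024190-99024309 (Top2a, minus strand), chr2:164769809-164769928 (Ube2c, plus strand) and chr1:128359706-128359825 (Mcm6, minus strand). Capitals mark TTTGAA on either strand in the first 3, and the E2F letters on either strand in Mcm6, where a pair of them overlap.
Cdk1: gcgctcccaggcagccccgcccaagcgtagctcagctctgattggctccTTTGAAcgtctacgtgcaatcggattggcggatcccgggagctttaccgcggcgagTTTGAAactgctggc
Top2a: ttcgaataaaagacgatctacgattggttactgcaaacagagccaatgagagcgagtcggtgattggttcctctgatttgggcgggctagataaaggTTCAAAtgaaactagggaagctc
Ube2c: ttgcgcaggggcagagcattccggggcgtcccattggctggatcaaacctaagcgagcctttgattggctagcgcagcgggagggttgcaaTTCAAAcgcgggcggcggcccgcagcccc
Mcm6: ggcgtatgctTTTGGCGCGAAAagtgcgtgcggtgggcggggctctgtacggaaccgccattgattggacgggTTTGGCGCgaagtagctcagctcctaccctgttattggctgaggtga

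In windows of 250 bases before to 50 after the start, searched on both strands, TTTGAA was present for 25 of the 32 tested G2 and M genes with a window (78.1%), against 14.5% of the 12261 tested genes with one. Among the 21 G2 and M genes that were apart and higher in set B it was present in 18. It was present for 4 of 27 S phase genes (14.8%), and for 15.4% of the 467 other genes apart and higher in set B and 14.3% of the 484 higher in set A. The E2F letters were present for 9 of the 27 S phase genes (33.3%) against 1.6% of all tested genes with a window. The letters CCAAT, bound by NF-Y, were present for 24 of the 32 G2 and M genes (75%) and 42.1% of the tested genes. A match of letters is a description of the window and not a bound site.

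DNA replication genes were higher in set B as well. Of 33 tested S phase genes, 19 were apart and higher in set B and 0 higher in set A, with a median difference of -0.55. Mcm2, a subunit of the replicative helicase, was at 5.41 to 8.69 CPM in A (median 5.96) and 9.41 to 12.6 in B (median 11.3). Uhrf1, which carries DNA methylation through replication, was at 1.94 to 4.15 CPM in A (median 2.69) and 5.81 to 7.29 in B (median 6.34), a difference of -1.14 ± 0.13. Mcm3 (-0.74), the chromatin assembly factor Chaf1b (-1.27), the helicase partner Gins2 (-0.88) and the ribonucleotide reductase subunit Rrm2 (-0.86) were apart in the same direction. The summed level of the list was 198 to 226 CPM in set A and 277 to 294 CPM in set B.

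**Figure D3:**
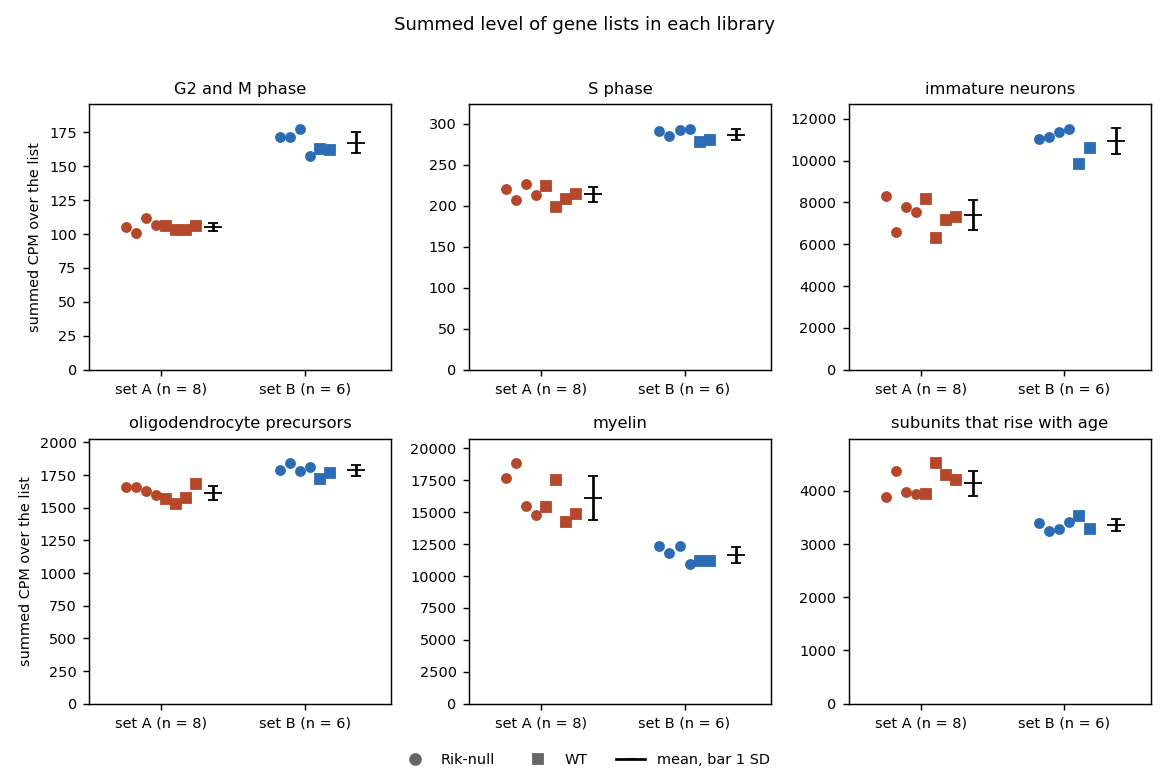
Summed CPM over the tested members of 6 gene lists in each library (y axis, from 0), by set, with circles for Rik-null, squares for WT and the mean with 1 SD in black. The 8 set A libraries lie below the 6 set B libraries for the G2 and M, S phase, immature neuron and oligodendrocyte precursor lists and above them for the myelin and rising subunit lists, with no overlap in any panel.

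Genes of young, still-growing neurons were higher in set B nearly throughout their list, with 22 of 26 tested genes apart, 0 apart in the other direction and a median of -0.53. Igfbpl1, expressed by newly born neurons, was at 7.79 to 19 CPM in set A (median 13.9) and 33.7 to 41.8 in set B (median 38.3). The fitted difference was -1.48 ± 0.12, or 2.8-fold higher in B. Cd24a, a surface protein of young neurons, was at 22.1 to 36.4 CPM in A (median 32.4) and 64.1 to 70.1 in B (median 66). Dpysl3, a regulator of microtubules in the growth cone, was at 96.1 to 173 CPM in A (median 145) and 254 to 335 in B (median 314), 2.07-fold higher in B. In all 3 the ranges of the sets were well separated, and the highest library of set B stood less far above its lowest, as a ratio, than in set A.

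The growth cone and axon guidance members pointed the same way at smaller sizes. Draxin, a secreted guidance protein, was at 3.74 to 8.19 CPM in A and 11.8 to 14.5 in B (-0.99 ± 0.12). Dpysl5, of the same family as Dpysl3, had a difference of -0.93 ± 0.09. Sox11, a transcription factor of immature neurons, was at 24.2 to 35.6 CPM in A and 43.9 to 49.8 in B (-0.63 ± 0.07). The microtubule regulators Stmn1 (-0.39 ± 0.05) and Stmn2 (-0.59 ± 0.06) were among the more abundant members, at 416 to 527 against 565 to 628 CPM for Stmn1. The list summed to 6280 to 8330 CPM in set A and 9840 to 11500 in set B. Neuroblast genes of the subventricular zone were divided, with 3 of 14 apart and higher in B (Igfbpl1, Cd24a and Sox11, all shared with the immature neuron list) and Gad1, the GABA-synthesising enzyme that adult interneurons keep, apart and higher in A (0.26 ± 0.04).

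The granule cells of the cerebellum are the last large population of neurons to be born. The list for their precursors held the named gene with the largest difference on the set B side. Bulk libraries do not show in which region that gene was expressed. Nhlh1, a transcription factor of neurons that have just left the cell cycle, was at 0.67 to 2.31 CPM in set A (median 1.56) and 5.96 to 8.58 in set B (median 6.3). Its difference was -2.06 ± 0.18, 4.17-fold higher in B. Barhl1, a homeobox gene of granule cell precursors and young granule cells, was at 9.7 to 15.3 CPM in A and 22.2 to 31.3 in B (-1.03 ± 0.09). Sfrp1, a secreted Wnt inhibitor, was also apart and higher in B (-0.59 ± 0.08). In the other direction stood Ptch1 and Hhip, the receptor and the binding protein induced by Sonic hedgehog, which is the mitogen of granule precursors. Ptch1 was at 89.2 to 117 CPM in A and 77.4 to 85.9 in B (0.38 ± 0.05), and Hhip had a difference of 0.43 ± 0.06. The precursor list as a whole held 3 genes higher in B and 2 higher in A of 15 tested.

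Among genes of cerebellar granule neurons, 6 of 28 were apart and higher in A and 3 higher in B, with a median of 0.02 that changed sign when Rik-null 3 was left out (-0.00924). Gabra6, a GABA-A receptor subunit of mature granule cells, was at 79.7 to 111 CPM in A (median 95.9) and 51.1 to 78.2 in B (median 70.7), a difference of 0.53 ± 0.09. Grin2c, the NMDA receptor subunit of mature granule cells, had a difference of 0.47 ± 0.06, and Rab37 of 0.67 ± 0.10. Nrep (-0.44 ± 0.07) and Ebf3 (-0.52 ± 0.07) were higher in B. The ratio of Gabra6 to Nhlh1 within a library was 42.3 to 166 in set A and 8.22 to 11.9 in set B. That separation is fixed, because the genes were apart in opposite directions. Purkinje cell genes were divided: Itpr1, the IP3 receptor, was higher in A (0.53 ± 0.07), and the glutamate transporter Slc1a6 was higher in B (-0.50 ± 0.07), within a list of 4 higher in A and 1 higher in B of 26.

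Myelin genes were the counterpart on the set A side. Of 29 tested genes of myelinating oligodendrocytes, 25 were apart and higher in set A and 0 higher in set B, and all 29 had fitted differences above 0, with a median of 0.55. Mal, a proteolipid of compact myelin, was at 426 to 679 CPM in set A (median 439) and 197 to 247 in set B (median 222). Its difference was 1.16 ± 0.10, 2.24-fold higher in A. Ermn, a cytoskeletal protein of late oligodendrocytes, was at 61.1 to 86.9 CPM in A (median 65.3) and 29.6 to 39.1 in B (median 37.6). Opalin, a membrane glycoprotein of differentiated oligodendrocytes, was at 25.7 to 44.8 CPM in A (median 30.8) and 15.4 to 19.5 in B (median 18), 1.83-fold higher in A. The 2 highest libraries of set A for Mal were Rik-null 6 and WT 4.

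The major structural genes differed by less than the late ones. Mbp, the basic protein that compacts the sheath, was at 7378 to 9881 CPM in A (median 8280) and 6002 to 6903 in B (median 6316), a difference of 0.43 ± 0.06. Mog, a glycoprotein of the outermost myelin layer, was at 183 to 235 CPM in A and 133 to 154 in B (0.55 ± 0.06). Klk6, a serine protease of mature oligodendrocytes, had a difference of 0.83 ± 0.17 but sets that nearly touched, at 4.28 to 9.04 and 2.84 to 4.23 CPM. The summed myelin list stood at 14300 to 18900 CPM in set A and 11000 to 12400 CPM in set B.

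Earlier stages of the oligodendrocyte lineage differed less, and partly in the other direction. For precursor genes, 4 of 19 were apart and higher in B and 0 higher in A, with a median of -0.20. Those apart were C1ql1, a secreted synaptic organiser (22.3 to 35.5 CPM in A, 36.5 to 44.5 in B), Sapcd2 (-0.85 ± 0.10), Traf4 (-0.56 ± 0.07) and the calcium channel subunit Cacng4 (-0.32 ± 0.04). Genes of newly formed oligodendrocytes were divided, 2 higher in A (Kndc1 and Nfasc) and 4 higher in B (among them Rras2, Tcf7l2 and Frmd4a) of 18, with a median of -0.07. The cholesterol synthesis pathway, which supplies growing myelin, was higher in B in 6 of 19 genes and in 0 higher in A, with a median of -0.18. Hmgcs1, an early enzyme of the pathway, was at 359 to 444 CPM in A (median 416) and 475 to 512 in B (median 485), and Mvk (-0.42 ± 0.07), Mvd (-0.38 ± 0.06) and Tm7sf2 (-0.36 ± 0.05) lay in the same direction. The ratio of Mobp, a myelin protein gene, to Pdgfra, the growth factor receptor of precursors, was 15.3 to 25.7 in set A and 7.85 to 11.4 in set B. Pdgfra (-0.23) and Cspg4 (-0.20), which head the precursor list, were themselves not apart. Set A thus had the higher summed level of sheath genes beside the lower summed level of precursor and sterol synthesis genes.

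**Figure D4:**
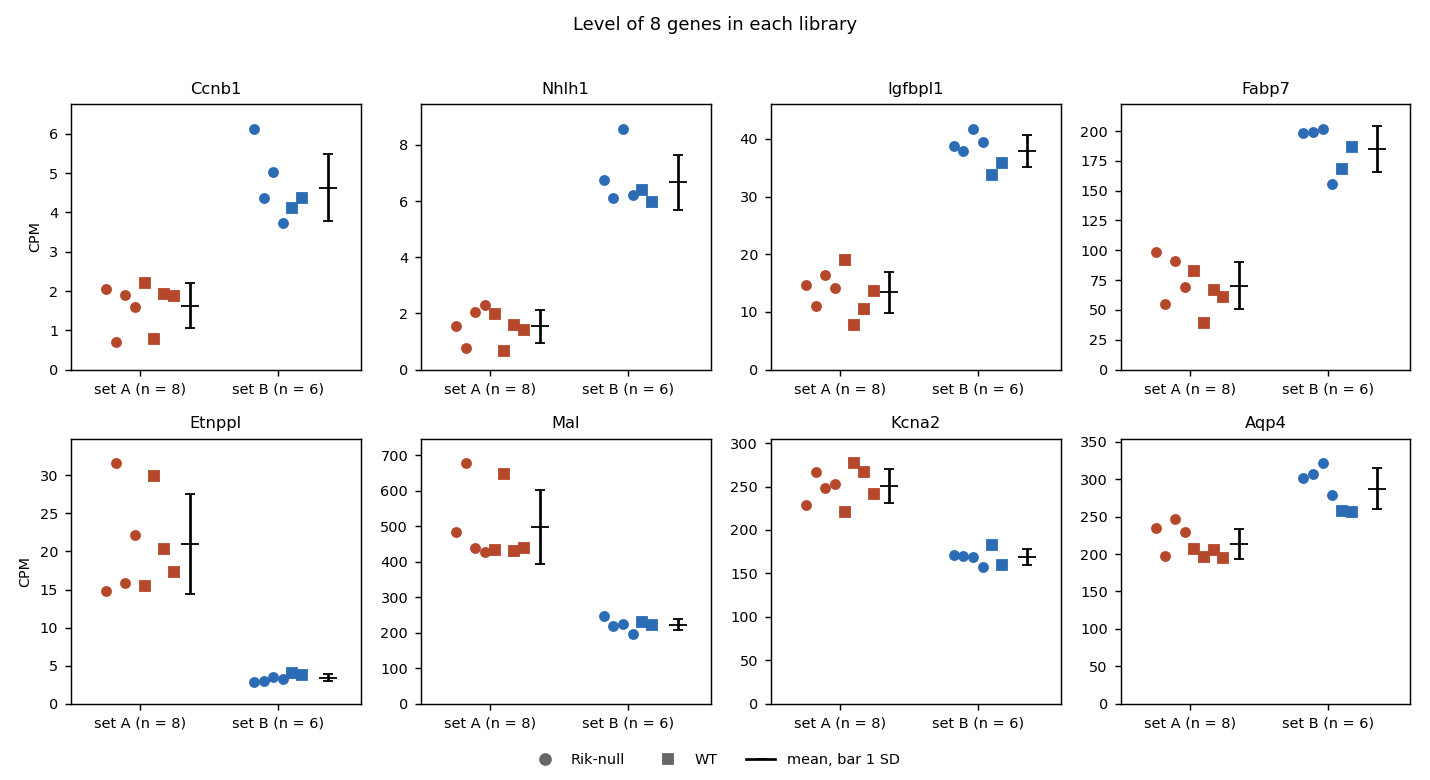
CPM (y axis, from 0) of 8 genes in each library, by set, with circles for Rik-null, squares for WT and the mean with 1 SD in black. Ccnb1, Nhlh1, Igfbpl1, Fabp7 and Aqp4 are higher in every set B library, and Etnppl, Mal and Kcna2 in every set A library, with the highest Etnppl values (31.7 CPM at most) within set A in Rik-null 6 and WT 4.

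Radial glia and astrocyte genes showed both directions within related cells. Fabp7, the fatty acid binding protein of radial glia and young astrocytes, was at 39.3 to 98.5 CPM in set A (median 68.2) and 156 to 202 in set B (median 192). Its difference was -1.37 ± 0.13, 2.58-fold higher in B. Tnc, an extracellular matrix protein of neural stem cell niches, was at 13.8 to 28.7 CPM in A and 32.1 to 43.4 in B (-0.81 ± 0.09). Of the 16 radial glia genes tested, these 2 were the ones apart and higher in B, while Prom1 was higher in A (0.46 ± 0.07).

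The largest difference of any named gene belonged to Etnppl, an enzyme of phosphoethanolamine breakdown made in mature astrocytes. It was at 14.8 to 31.7 CPM in set A (median 18.9) and 2.82 to 4 in set B (median 3.42), a difference of 2.61 ± 0.19, 6.09-fold higher in A. Dao, the D-amino acid oxidase of hindbrain astrocytes, was at 5.66 to 11 CPM in A (median 7.06) and 2.57 to 3.17 in B (median 2.71). Fam107a, an actin-binding protein of astrocytes and a glucocorticoid target, was at 365 to 531 CPM in A (median 412) and 156 to 211 in B (median 183), 2.35-fold higher in A. In all 3 the lowest library of set A exceeded the highest of set B by a wide margin.

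Within the astrocyte list 6 of 24 genes were apart and higher in A and 2 higher in B, with a median of 0.14. Gjb6, the connexin of mature astrocytes, was at 62.7 to 81.4 CPM in A and 39.8 to 48.1 in B (0.69 ± 0.06). Itih3 (1.02 ± 0.12), the glycolytic enzyme Aldoc (0.40 ± 0.05) and the neurotensin receptor Ntsr2 (0.41 ± 0.05) lay in the same direction. Aqp4, the water channel of astrocyte endfeet, went the other way, at 195 to 246 CPM in A (median 206) and 256 to 322 in B (median 291), a difference of -0.39 ± 0.04. The gap junction gene Gja1, the second entry of the list, was not apart, with a difference of 0.13 ± 0.04.

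Some genes of mature neurons were higher in set A at modest sizes. Of 33 tested genes of synapses and mature neurons, 10 were apart and higher in A and 0 higher in B, with a median of 0.15 and summed levels that overlapped (20800 to 22800 CPM in A, 19600 to 21000 in B). The neurofilament genes Nefh (0.12 ± 0.05) and Nefm (0.15 ± 0.04) were not apart. Snap25, a SNARE protein of transmitter release, was at 1056 to 1358 CPM in A (median 1173) and 752 to 935 in B (median 790), a difference of 0.51 ± 0.04. Camk2a, the calcium-dependent kinase of excitatory synapses, was at 1444 to 1689 CPM in A and 1108 to 1267 in B (0.42 ± 0.04). The potassium channel Kcnc1 (0.51 ± 0.05), which lets neurons fire fast, was apart in the same direction.

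Subunits that replace juvenile ones were higher in A in 9 of 18 genes, with all 18 differences above 0 and a median of 0.32. Kcna2, a potassium channel that flanks the nodes of myelinated axons, was at 221 to 277 CPM in A (median 251) and 158 to 182 in B (median 170), 1.48-fold higher in A. Grin2a, the NMDA receptor subunit that increases after birth, was at 115 to 131 CPM in A (median 125) and 91.4 to 108 in B (median 99.3). The sodium channel Scn1a (0.37 ± 0.05) and Kcnab2 (0.38) were also apart. Of 8 tested juvenile subunits, Gabra5 and Grin3a were apart and higher in B, with Gabra5 at 59.4 to 75.5 CPM in A and 82.4 to 99.1 in B and a Grin3a difference of -0.45 ± 0.05. Slc12a2, the chloride importer of immature neurons and also of oligodendrocytes, went the other way, at 130 to 166 CPM in A and 104 to 119 in B. Grin2b, the juvenile partner of Grin2a, was not apart (0.05 ± 0.05).

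Ratios of partner genes within a library do not depend on its scaling. The ratio of Scn1a to Scn3a, an adult and a juvenile sodium channel, was 2.42 to 3.65 in set A (median 2.8) and 1.79 to 2.14 in set B (median 1.83). Grin2a to Grin2b overlapped, at 0.317 to 0.462 in A and 0.287 to 0.35 in B, and so did Slc12a5 to Slc12a2, at 4.19 to 5.99 and 4.9 to 6.45. The sodium channel pair was thus separate between the sets and the other pairs were not.

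Brain regions did not part the sets as cell stages did. Of 25 lists for regions or neighbouring tissues, 6 held no gene apart, among them hippocampus (0 of 22), mitral and tufted cells of the olfactory bulb (0 of 14) and the Hox genes of the hindbrain (0 of 12). Thalamus had 1 higher in A (Ptpn3) and 1 higher in B (Tcf7l2) of 26, and hypothalamus had 0 and 2 of 29 (Nts and Hap1). Serotonin and noradrenaline neurons, cholinergic neurons and hypothalamus had the lowest medians of the region lists (-0.24, -0.17 and -0.16), with summed levels that overlapped. With the replicate number as a block all 3 medians changed sign, to 0.17, 0.11 and 0.16. Striatal projection neurons had 5 of 26 higher in A and 0 higher in B, a median of 0.10, and summed levels that did not overlap, at 2230 to 2530 CPM in A and 1950 to 2110 in B. The sums also did not overlap for pan-telencephalic glutamate neurons (5244 to 6219 CPM in A and 4724 to 5241 in B, which nearly touched), whose median of 0.10 turned to -0.12 with the replicate block, and for the peripheral nerve list, which holds Mbp. The largest difference among the striatal genes apart was that of Scn4b, a sodium channel subunit, at 142 to 200 CPM in A and 80.5 to 109 in B (0.68 ± 0.07), followed by Rasd2 (0.39 ± 0.05), Rgs4 (0.26 ± 0.04) and the dopamine receptor Drd1 (0.24 ± 0.06). Upper-layer cortical genes had 2 of 17 and deep-layer genes 3 of 21 higher in A, with medians of 0.09 and -0.03. In the deep-layer list 1 gene, Hs3st4 (-0.21), was apart and higher in B. Among dopamine neuron genes the 1 of 15 apart was Aldh1a1 (0.72 ± 0.06), and among midbrain and hindbrain regulators Spp1 (0.63 ± 0.08) and Barhl1 went in opposite directions. How each brain was divided was not tested against the sets, since the labels do not record it.

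Other cell types gave few genes apart. Microglia had 0 of 24 and ependymal cells 0 of 20, with medians of 0.05 and -0.08. Brain endothelium had 3 higher in A and 1 higher in B of 26, with a median of 0.03. The largest was Slco1a4, an organic anion transporter of the blood-brain barrier, at 30.7 to 53.4 CPM in A (median 38.8) and 21.1 to 25 in B (median 24.3), followed by the carbonic anhydrase Car4 (0.56 ± 0.06). The barrier transporter Slco1c1 was higher in B (-0.23 ± 0.05). Choroid plexus had 1 of 24 (Enpp2, also a gene of oligodendrocytes), meningeal fibroblasts 1 of 27 (Mgp), and pericytes 1 of 17 (Des). Genes of red blood cells had the second largest median of all lists, 0.51, with 0 of 8 apart and summed levels that overlapped, 580 to 626 CPM in A and 516 to 617 in B. Their part in the other differences was not tested.

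Some gene groups tied to the state of the tissue or of its RNA had medians away from 0 but few genes apart. Cytosolic ribosomal protein genes had fitted differences below 0 in 64 of 65, with a median of -0.32, yet only 4 were apart, and their sum overlapped at 8130 to 11500 CPM in A and 10500 to 12600 in B. Rpl10a, a protein of the large subunit, was one of the 4, at 123 to 160 CPM in A and 165 to 193 in B. Nuclear genes of the respiratory chain had a median of -0.14, with 1 of 71 apart. Neuronal immediate early genes had a median of 0.25 with 0 of 29 apart, and with the replicate block both that median and the difference of Fos went to -0.01. Fos, the best known of them, was at 22.4 to 64.6 CPM in A (median 46.6) and 23.3 to 33.3 in B (median 27.6), so that most set A libraries were above set B but the ranges overlapped.

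Of 18 clock genes, 6 were apart and higher in A, 0 were higher in B and 12 were not apart, with a median of 0.30 and summed levels that did not overlap. Per3, of the repressor arm, was at 46.9 to 66.6 CPM in A (median 56.5) and 40.5 to 45.4 in B (median 42.7), while Arntl, the core activator, was at 28.2 to 34.4 and 29.4 to 34 (-0.04 ± 0.05). The output regulators Hlf (0.45 ± 0.04) and Bhlhe40 (0.47 ± 0.06) and the nuclear receptor Nr1d2 (0.36 ± 0.05) were also apart. Of 20 genes of the glucocorticoid response 3 were apart and higher in A and 0 higher in B, with a median of 0.28. The well known targets Fkbp5 (0.31 ± 0.10) and Sgk1 (0.16 ± 0.07) were not apart. Mt1, a metallothionein of astrocytes, was at 197 to 280 CPM in A (median 225) and 116 to 133 in B (median 122), 1.9-fold higher in A. Sult1a1, a sulfotransferase, had a difference of 1.03 ± 0.12, and Glul, the glutamine synthetase of astrocytes, of 0.38 ± 0.05. The time of day of collection is not in the labels, and its part was not tested.

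Of 10 perineuronal net genes, Hapln2 (0.77 ± 0.13) and Hapln4 (0.58 ± 0.08), link proteins of the matrix at nodes and synapses, were higher in A and the proteoglycan Ncan (-0.27 ± 0.05) was higher in B. Forebrain interneurons had 3 of 21 higher in A, Gad1, Lamp5 (0.35 ± 0.04) and the neuropeptide Vip (0.24 ± 0.06), with summed levels of 2060 to 2220 CPM in A and 1960 to 2020 in B. The median of that list, 0.05, changed sign when WT 2 was left out (-0.012). Of 22 hypoxia-induced genes, Ndrg1, also a myelin gene (0.78 ± 0.12), and Aldoa (0.22 ± 0.05) were higher in A and Ldha (-0.27 ± 0.05) was higher in B. The summed list had medians over libraries of 2750 CPM in A and 2530 in B. Its sets nearly touched, at 2581 CPM in Rik-null 7, the lowest of A, and 2578 in WT 3, the highest of B. Heat shock genes had 1 of 24 apart, Cirbp, higher in B (-0.39 ± 0.05), and splicing factors 0 of 36.

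Gene length moved with the sets to a small extent. The median difference was -0.08 for gene models of up to 1000 bases and 0.06 for those over 8000 bases, with a steady order in between. Of the longest class 6% were apart and higher in A and 2.91% higher in B, against 0.838% and 2.01% of the shortest. Among 572 processed pseudogenes, 0 were apart and higher in A and 16 higher in B, with a median of -0.14. Their part in the results for single genes was not tested. The chromosomes gave 1.9% to 5.03% of their tested genes apart and higher in A and 2.85% to 4.89% higher in B.

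The difference was also computed within each genotype. Because a gene is apart only where no library of one set overlaps the other, the same sign in both genotypes is fixed by that definition, and the sizes of apart genes are given as a description. Among Rik-null libraries alone (4 against 4) 1327 of the 1347 apart genes reached a difference of 0.2, and among WT libraries alone (4 against 2) 1259 did. The median difference of the genes higher in A was 0.40 in Rik-null and 0.36 in WT, and that of the genes higher in B was -0.42 and -0.38. Etnppl differed by 2.65 in Rik-null and 2.34 in WT, Nhlh1 by -2.07 and -2.14, and Mal by 1.18 and 1.09. Over all 17557 genes, which that definition did not select, the within-genotype differences had a Pearson r of 0.656 across genes, which are not independent replicates and which include those the sets were chosen on. Whether the set difference itself differed between genotypes was tested with the interaction of set and genotype. The sets were chosen on these same counts and cut across both genotypes. That choice can favour genes with equal differences in both, so the test is not independent of it. No gene of 17557 passed (0, or 0%, at an adjusted p of at most 0.05 with edgeR). An unadjusted p of at most 0.05 was held by 423, a share below 0.05, and DESeq2 gave 0 with 296. With only 2 WT libraries in set B and sets chosen in this way, a missing call does not show that the genotypes had equal differences.

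**Figure D5:**
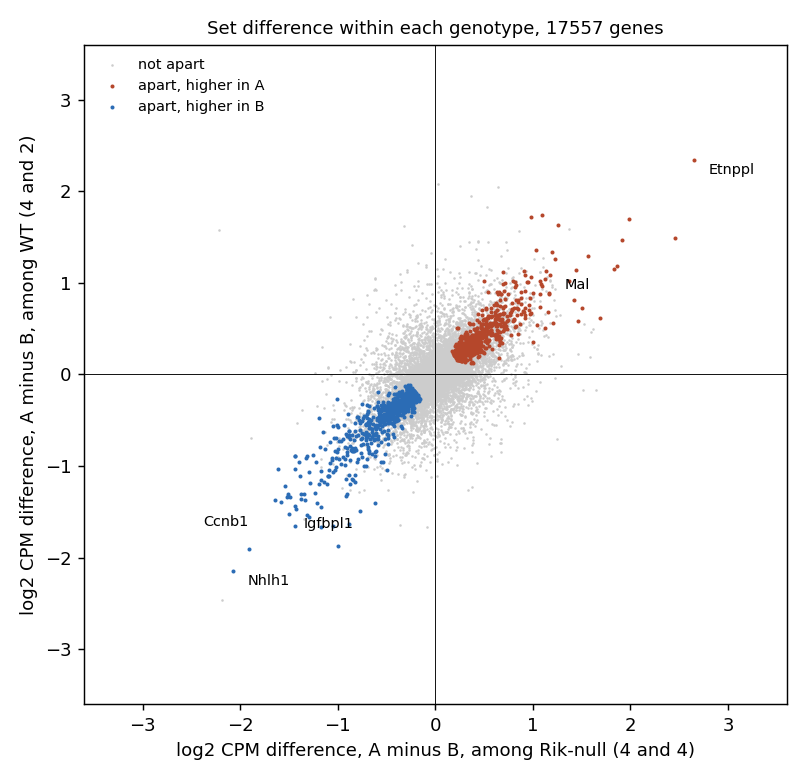
Difference in mean log2 CPM between set A and set B among Rik-null libraries (x axis, 4 against 4) and among WT libraries (y axis, 4 against 2), 1 point per tested gene; genes apart and higher in A are red and those higher in B blue. Etnppl lies at 2.65 and 2.34 and Nhlh1 at -2.07 and -2.14. The definition of apart places the coloured genes in the quadrants of equal sign.

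The libraries within a set were not alike. Among the 1347 genes apart, Rik-null 6 or WT 4 held the most extreme value on the set A side in 933 (69.3%), WT 4 in 525 and Rik-null 6 in 408, while the other 6 libraries of set A did so in 42 to 126 each. On the set B side the extremes were spread more evenly, from 78 genes for WT 2 to 407 for Rik-null 5. The library nearest to the gap on the set B side was WT 2 in 525 genes, and on the set A side WT 1 in 356 and Rik-null 1 in 352. In the immature neuron list Rik-null 6 (6609 CPM summed) and WT 4 (6279) were lowest and WT 2 (9838) was the lowest of set B. In the myelin list Rik-null 6 (18890) was highest, Rik-null 1 (17720) and WT 4 (17550) followed, and the other set A libraries held 14270 to 15470, which is above the 12370 of Rik-null 4, the highest of set B. Rik-null 1, close to the gap on the principal component, was thus among the highest set A libraries for summed myelin genes.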

How the data were processed

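Whole-number read counts per gene for 14 libraries were deposited by the authors in 1 table of 56748 genes, with no normalization. A sequencing service made libraries and counts; the build mm10 is named in the submitters' processing notes, and the sources used here do not state the aligner, counter, annotation release or strandedness. FPKM columns and the authors' own comparison of genotypes (fold changes and p-values) were deposited too and were not used; 0 columns of values were left unmapped.

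Genes on X, Y and MT (4249) were left out. Counts were filtered with filterByExpr by genotype, scaled by TMM and fitted in edgeR 4.0.16 (R 4.3.3) by quasi-likelihood with genotype and set as terms. CPM are TMM-scaled counts on a common library total, and log2 CPM used a prior count of 2. SE is the size of the fitted difference over the square root of its quasi-likelihood F value. The sets were formed on these same counts, so SE may be too small and is not to be read as a test of the sets. Library totals (15183130 to 30993890) limit precision most for genes near 1 CPM, and SE, SD and p-values measure only the spread between these 14 samples. P-values were adjusted by Benjamini-Hochberg. DESeq2 1.42.0 was an alternative. Scripts were tested on simulated data. RefSeq promoter windows (GRCm38.p6) matched 12261 tested genes by symbol. Gene coordinates of the deposited table were not used.

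The sets, the gene lists and the tests were chosen with earlier results of these data known, so counts over lists are descriptions. Genes were named by rule: the 15 largest differences in each direction among apart genes of at least 1 CPM with a gene symbol, up to 5 apart members per list, the first 2 tested members of each list, the Rik and sex genes, and up to 10 interaction calls. Gh, Mcm6, Mobp, Pdgfra, Gabra2, Scn3a, Slc12a5, the families and the genes of added lists were chosen after their values were seen. Some genes of these lists are not reported here by name.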

Additional observations from a re-analysis of the deposited data

Results flagged for a closer look

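In 240 groups of set A or set B values (the genes shown, the summed lists, total counts and the first component), 9 held a library far from the rest of its set by Dixon's criterion. Chance flags about 1 in 20 such groups. In set B, Rik-null 5 was low for Ermn (29.6 CPM against 35.6 in the next) and high for the summed imprinted and fetal growth genes (1400 against 1220 CPM). WT 3 was low for Scn1a (108 against 119 CPM), and Rik-null 4 was high for Nhlh1 (8.58 against 6.74 CPM). WT 2, the set B library nearest to set A, was low for the summed cytosolic ribosomal proteins (10500 against 11900 CPM) and for the summed nuclear subunits of the respiratory chain (11900 against 12700 CPM). In set A, Rik-null 7 was high for Pimreg (1.9 against 1.09 CPM). WT 1 was high for the summed pan-telencephalic glutamate neuron genes (6220 against 5700 CPM) and low for the summed thalamus genes (1170 against 1260 CPM).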

How the results depend on the processing

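The counts of 664 genes apart and higher in A and 683 higher in B moved by over 1.5 times under 3 settings: a minimum size of 0.5 gave 217 and 244, no overlap within each genotype taken alone gave 1034 higher in A (963 higher in B), and leaving out Rik-null 1, WT 1 and WT 2, chosen with the values in view, gave 1643 and 1781, of which 1325 were among the 1347. With each library left out in turn the counts ran from 655 to 869 and from 685 to 994. Without Rik-null 6 and WT 4, also chosen after, they were 645 and 676, with 1254 of the 1347 kept. With the replicate number of the labels as a block the counts were 677 and 727. Same-numbered Rik-null and WT libraries deviated together only where both lay in one set (correlations of -0.33 to 0.33 from the genotype means). From the means of genotype and set, Rik-null 1 and WT 1 still had a correlation of 0.32, and the other numbers had -0.05 to 0.03. The numbers were not taken as pairs. Under that replicate block the interaction of set and genotype passed in 4 genes instead of 0, Capn11, Tph2, Sumo2 and Slc6a4 (edgeR, smallest adjusted p = 4.97e-05); the cause was not tested. With each library left out it passed in 0 to 0 genes, and the difference in total counts ran from 956694 to 3215374. Of 1566 values of shown genes under other settings 1 changed sign, Fos under the replicate block (-0.01), and of 1736 list medians 49 did, over 27 lists, 15 of them under the replicate block and 43 from a median under 0.1 in size. Those of larger size under the block included hypothalamus (0.16), serotonin and noradrenaline neurons (0.17), cholinergic neurons (0.11) and immediate early genes (-0.01); bone, cartilage and skin went to 0.00 with thinned counts. Signs also changed for pan-telencephalic glutamate neurons (-0.12) and Purkinje cells (-0.00958) under the replicate block, cerebellar granule neurons without Rik-null replicate 3 (-0.00924, the lowest of a range up to 0.0430 with single libraries left out), and forebrain interneurons without WT replicate 2 (-0.012, of a range up to 0.093) and without Rik-null 1, WT 1 and WT 2 (-0.00962). Without WT 1 and WT 6 the counts were 947 and 894. Litter, dissection, collection time and sequencing run cannot be told apart from the sets, because the labels record none of them. Depth limits the mitotic genes most, since several lie near 1 CPM in set A.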

Other observations

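X-linked genes, left out of the comparison because the libraries differ in sex, were fitted in an added alternative. Of 609 X-linked genes 20 (3.28%) were apart and higher in A and 30 (4.93%) higher in B. Among those on the gene lists, Dcx, the microtubule protein of migrating neurons, was at 52.9 to 104 CPM in A (median 77.6) and 114 to 128 in B (median 119), a difference of -0.61 ± 0.10. The mitotic kinesin Kif4 (-0.93 ± 0.14) and the juvenile glycine receptor subunit Glra2 (-0.43 ± 0.07) were higher in B, and the glucocorticoid-induced Tsc22d3 (0.35 ± 0.05) was higher in A. The cold-induced RNA-binding gene Rbm3 was higher in B (-0.39 ± 0.05), as was its autosomal relative Cirbp (-0.39 ± 0.05).

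A list of interferon-induced and MHC class I genes, written after the values were seen, had 5 of 36 apart and higher in A and 0 higher in B, with 31 of 36 differences above 0 and a median of 0.33. H2-K2 was at 1.07 to 2.42 CPM in A and 0.33 to 1.05 in B (1.35 ± 0.24), and H2-T23 (1.03 ± 0.12), Rtp4 (0.85 ± 0.17), Sp100 (0.73 ± 0.19) and Stat2 (0.29 ± 0.05) were also apart. H2 genes are close copies of each other, and how their reads were shared out is not given in the sources used here. Of 17 imprinted and fetal growth genes 1 was apart, Impact (0.24 ± 0.04, higher in A), and of 6 Gstm genes 1, Gstm1 (0.57 ± 0.07, higher in A).

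Families were counted by symbol after the values were seen, beside 3.78% of all tested genes apart and higher in A and 3.89% higher in B. Potassium channel genes (Kcn) had 15 higher in A and 2 higher in B of 83 (18.1% and 2.41%). Tubulins had 0 and 6 of 20 (30% higher in B) and minichromosome maintenance genes 0 and 6 of 9 (66.7%). Collagens had 0 and 5 of 42 (11.9%), and kinesins 3 and 7 of 34 (8.82% and 20.6%). Sox genes had 0 and 3 of 16, histones 1 and 2 of 20 and claudins 1 and 1 of 9. Solute carriers had 3.42% and 4.45% of 292. Zinc finger genes (2.2% and 1.1% of 364) and protocadherins (1.56% and 0% of 64) lay below the shares of all genes. The other genes with the largest differences included Igfn1 (1.87 ± 0.26) and Vwa7 (1.32 ± 0.22) on the set A side and the microfibril gene Mfap4, at 3.84 to 6.2 CPM in A and 11.5 to 17.2 in B, on the set B side.

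Gabra2, a GABA-A receptor subunit, did not follow the sets. It was at 61.2 to 70.3 CPM in all 6 set B libraries, at 64.1 in Rik-null 1 and 69 in WT 1, at 39.4 to 47.2 in Rik-null 6 and 8 and WT 4, 5 and 6, and at 105 in Rik-null 7.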
